A study of Homo sapiens with 4 samples.

Results

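The genes described here are NUAK2 and 9 others of the kinase network under LKB1: NUAK1, STK11 (which encodes LKB1), PRKAA1 and PRKAA2 (the catalytic subunits of AMPK), SIK1, SIK2, SIK3, MARK2, and PPP1R12A, which encodes the targeting subunit of myosin phosphatase. They are 10 of the 61541 genes in the deposited count files, found by symbol. NUAK2 was selected on its mRNA counts, chosen by a lower level with Ginseng nanoparticle in these same libraries, and the others were added as its relatives, partners and substrate. Their differences between the groups are therefore given as a description, with no p-value.

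RNA came from H1299, an established lung carcinoma cell line of human origin, used in the field as one that retains LKB1. One group was treated with Ginseng nanoparticle, particles made from ginseng tissue, and the other with PBS (phosphate-buffered saline), with 2 libraries in each and both were grown in Dulbecco's modified Eagle medium with fetal bovine serum and penicillin-streptomycin. Dose, exposure time and the plant part used for these samples are not in the labels. Nor do the labels say whether replicates were separate cultures, so the tests cover only how far these libraries differ, and that spread may be technical. Both nanoparticle titles include the word control, at odds with their treatment label, and grouping followed the treatment label.

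LKB1 is a kinase that works with the pseudokinase STRAD and the scaffold MO25 and switches on AMPK and a family of AMPK-related kinases by phosphorylating 1 threonine in their activation loop. AMPK senses low cellular energy, the SIKs hold CRTC coactivators of CREB in the cytoplasm, the MARKs act on microtubule proteins and cell polarity, and the NUAKs phosphorylate the myosin phosphatase subunit MYPT1 and so bear on myosin II and cell adhesion. NUAK2 is also known as a transcriptional target of YAP and TAZ, which bind DNA through TEAD factors. The study's title concerns cell migration, in which myosin II and polarity kinases take part.

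What the kinases share is visible in their coding sequence. The stretches below run from the codons of the start of the activation segment (aspartate, phenylalanine, glycine) to those of its end (proline, glutamate), 5′ to 3′, in GENCODE 29 principal transcripts, and are shown because they hold the site of LKB1. Capitals mark the codon of the threonine.
NUAK2: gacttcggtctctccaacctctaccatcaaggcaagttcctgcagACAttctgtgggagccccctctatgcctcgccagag
NUAK1: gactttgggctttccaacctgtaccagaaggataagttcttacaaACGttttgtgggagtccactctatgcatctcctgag
PRKAA1: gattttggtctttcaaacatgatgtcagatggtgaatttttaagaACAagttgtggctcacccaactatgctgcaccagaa
PRKAA2: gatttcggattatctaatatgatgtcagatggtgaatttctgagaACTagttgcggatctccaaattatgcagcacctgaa
SIK2: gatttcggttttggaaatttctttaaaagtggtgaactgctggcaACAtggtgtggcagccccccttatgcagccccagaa
SIK3: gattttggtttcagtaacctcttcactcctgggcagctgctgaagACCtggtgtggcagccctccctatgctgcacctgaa
MARK2: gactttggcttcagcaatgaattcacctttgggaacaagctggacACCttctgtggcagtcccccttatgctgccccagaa

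Each stretch had 81 bases, with the threonine codon at the same place, and the last 36 bases, from that codon on, could be compared without gaps. NUAK1 matched NUAK2 at 29 of those 36 bases and at all 12 encoded amino acids. MARK2 matched it at 27 bases and 10 amino acids, SIK2 at 27 bases and 9 amino acids, SIK3 at 25 bases and 9 amino acids, PRKAA1 at 23 bases and 9 amino acids, and PRKAA2 at 18 bases and 9 amino acids. NUAK2 and NUAK1 thus encoded the same amino acids in these last 36 bases. SIK1, whose stretch is not printed, matched NUAK2 at 27 bases and 9 amino acids. The bases before the threonine codon were not scored, and there the printed stretches of NUAK2 and NUAK1 differ in encoded amino acids.

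Reads counted on genes numbered 24979081 and 24863313 with nanoparticles, against 22252686 and 22456882 with PBS. Of the epithelial markers KRT8 and KRT18 were expressed, while EPCAM, KRT19 and CDH1 stayed at or below 9 counts in every library. The mesenchymal markers VIM, CDH2, FN1 and ZEB1 were all expressed. Over the 11 markers fixed for blood, endothelial and fibroblast cells, the sums per list were between 8 and 28 counts in every library, and the leukocyte gene PTPRC had none. Mitochondrially encoded RNA took 0.371% and 0.512% of the gene counts in the nanoparticle libraries and 0.310% and 0.428% in the PBS libraries, so the groups overlapped. Fewer cells that express a gene and less RNA per cell cannot be told apart in such bulk libraries.

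NUAK2 was the member with the clearest difference. It had 350 and 426 counts in the nanoparticle libraries and 507 and 525 counts in the PBS libraries. These were 13.99 and 17.1 CPM (counts scaled to library size, with TMM factors) in the nanoparticle libraries and 22.8 and 23.5 CPM in the PBS libraries. Both nanoparticle libraries lay below both PBS libraries, as in 23.2% of all tested genes. The nanoparticle libraries differed from each other more than the PBS libraries did. The means were 15.5 ± 2.204 CPM with nanoparticles and 23.1 ± 0.494 CPM with PBS (SD, n = 2 each). The log2 fold change was -0.57 with a standard error of 0.085, a level of 0.672 times that in PBS.

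Of the 9 members that could be tested, NUAK2 was the 1 called by edgeR (quasi-likelihood test, adjusted p under 0.05), and also with the length trend removed, where 1.32% of all genes were called. Across the transcriptome 407 of 15778 tested genes, 2.58%, passed it in either direction and 0.83% were lower. Since NUAK2 was chosen for this decrease in these libraries, its call, here and in every other fit, is a description and no test of it. Its count says nothing further about the family. NUAK2 stayed past the threshold without nanoparticle replicate 1 (log2 fold change -0.43) and without nanoparticle replicate 2 (-0.72). It did not without PBS replicate 1 (-0.60) or PBS replicate 2 (-0.55), where no gene of the transcriptome passed (1562 and 1672 genes at an unadjusted p under 0.05).

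**Figure D1:**
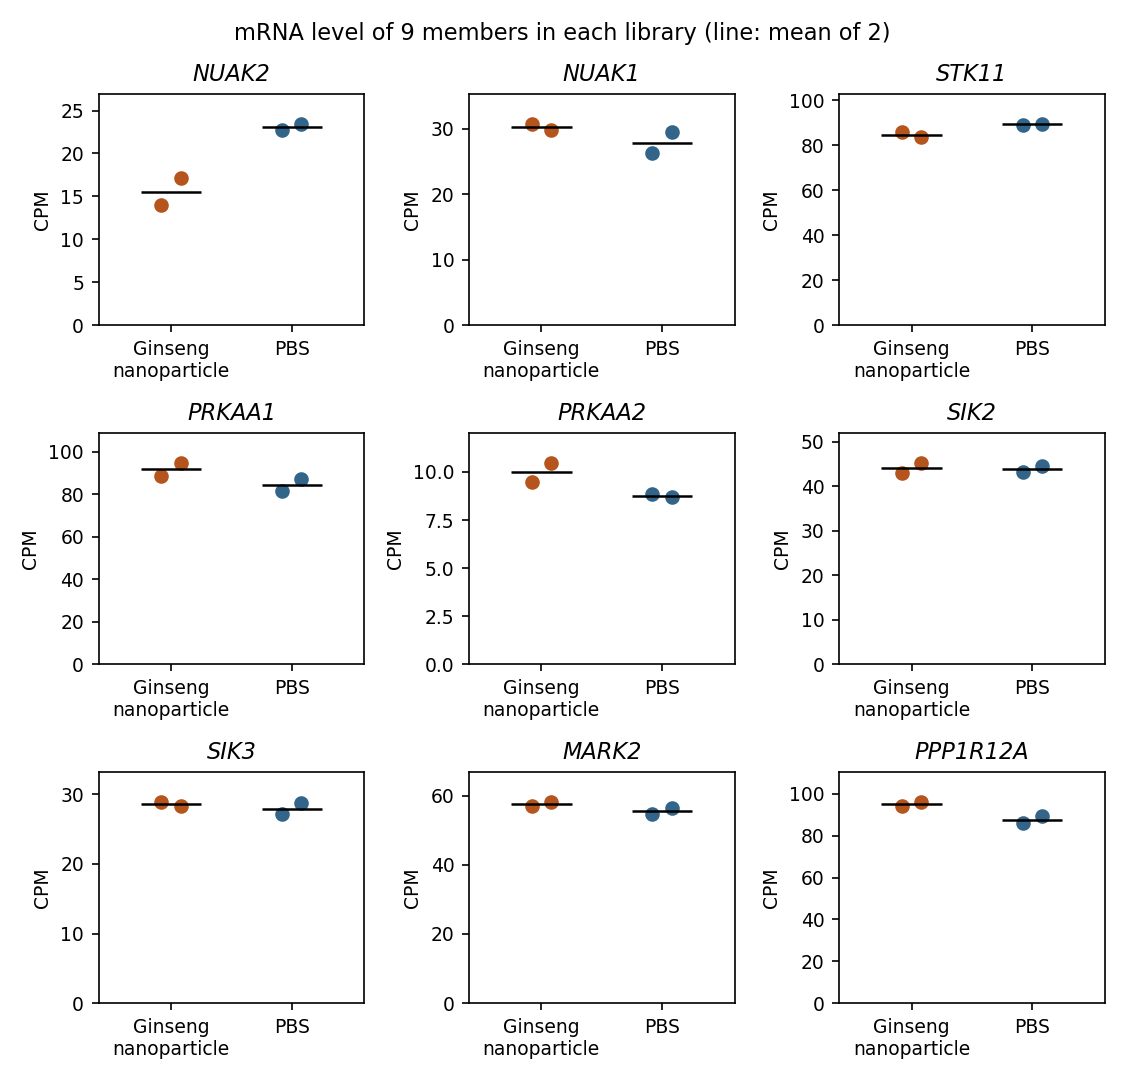
Level of each of the 9 measured members in CPM (vertical axes, from 0) in the 2 Ginseng nanoparticle and 2 PBS libraries, with points for libraries and a line for the mean. NUAK2 lies at 13.99 and 17.1 CPM with nanoparticles and at 22.8 and 23.5 CPM with PBS, while no other panel has a log2 fold change above 0.19 in size.

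NUAK1, the close paralogue of NUAK2 with the same known substrate, did not share the decrease. It had 30.8 and 29.9 CPM in the nanoparticle libraries and 26.2 and 29.5 CPM in the PBS libraries. All nanoparticle values were above all PBS values, as in 23.7% of all tested genes. The difference was no more than the gap between the PBS libraries (log2 fold change 0.12, SE 0.066, past no threshold). The PBS library used moved it, to 0.038 without PBS replicate 1 and 0.21 without PBS replicate 2, and it was 0.069 with the length trend removed. Per kilobase of transcript, the ratio of NUAK2 to NUAK1 mRNA was 0.902 and 1.136 in the nanoparticle libraries and 1.723 and 1.578 in the PBS libraries. NUAK2 was thus the more abundant of the pair in both PBS libraries, and with nanoparticles the pair stood near parity. The order of the groups held with the union of exons as length, at 0.926 and 1.166 in the nanoparticle libraries and 1.768 and 1.620 in the PBS libraries.

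STK11, the upstream kinase LKB1, had 85.7 and 83.6 CPM in the nanoparticle libraries and 89.1 and 89.5 CPM in the PBS libraries. The groups did not overlap, as in 46.9% of all tested genes, and the log2 fold change was -0.076 (SE 0.039), not past the threshold. Its exons overlap those of CBARP on the opposite strand, and whether counting used strand is not stated in the labels. With length and GC trends removed from each library its log2 fold change was -0.034.

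Both catalytic subunits of AMPK had slightly higher values with nanoparticles, neither past the threshold. PRKAA1 had 88.8 and 94.9 CPM in the nanoparticle libraries and 81.8 and 87.3 CPM in the PBS libraries (log2 fold change 0.12, SE 0.044). PRKAA2 had 9.47 and 10.5 CPM in the nanoparticle libraries and 8.85 and 8.67 CPM in the PBS libraries (log2 fold change 0.19, SE 0.10). For both, every nanoparticle value was above every PBS value, as in 23.7% of all tested genes. Both have long transcripts of low GC content, and with length and GC trends removed the log2 fold changes were 0.043 for PRKAA1 and 0.065 for PRKAA2. The ratio of PRKAA2 to PRKAA1 per kilobase was 0.0581 and 0.0601 in the nanoparticle libraries and 0.0589 and 0.0541 in the PBS libraries, so PRKAA1 was the main catalytic subunit mRNA in both groups and the balance overlapped.

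SIK2 and SIK3, salt-inducible kinases, had overlapping groups. SIK2 had 43.0 and 45.3 CPM in the nanoparticle libraries and 43.2 and 44.6 CPM in the PBS libraries (log2 fold change 0.010, SE 0.052). SIK3 had 28.9 and 28.3 CPM in the nanoparticle libraries and 27.2 and 28.7 CPM in the PBS libraries (log2 fold change 0.033, SE 0.062). With the length trend removed both signs turned, to -0.074 for SIK2 and -0.013 for SIK3. Upper-quartile scaling turned the sign of SIK2 (-0.0027), as did leaving out nanoparticle replicate 2 or PBS replicate 1, and leaving out PBS replicate 1 turned that of SIK3 (-0.0087). Exons of SIK2 overlap those of PPP2R1B on the opposite strand.

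SIK1, which CREB itself is known to induce, was listed at 0 counts in all 4 libraries. Its copy SIK1B was also at 0 in all of them, and their annotated coding sequences of 2349 bases differ at 2 bases. Per the closing lines of the deposited counts, reads without a unique alignment were given to no gene. How many of them came from SIK1 was not tested, and no fold change is given. A count of 0 would by itself allow 0.120 to 0.135 CPM at these depths, taking 3 counts as the limit and counting error alone.

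MARK2, a microtubule affinity-regulating kinase, had 56.9 and 58.2 CPM in the nanoparticle libraries and 54.7 and 56.4 CPM in the PBS libraries (log2 fold change 0.051, SE 0.046). PPP1R12A, the subunit MYPT1 that NUAK kinases phosphorylate, had 94.3 and 96.2 CPM in the nanoparticle libraries and 86.1 and 89.3 CPM in the PBS libraries (log2 fold change 0.12, SE 0.039). In both genes the nanoparticle values lay above the PBS values, and neither passed the threshold. With the length trend removed the log2 fold change was 0.080 for PPP1R12A and 0.058 for MARK2, and with length and GC trends removed it was 0.058 for PPP1R12A and 0.071 for MARK2. Of the 9 measured members, 5 had all nanoparticle libraries above all PBS libraries and 2 had them below. Groups failed to overlap in 46.9% of all tested genes, in the higher direction in 23.7% and in the lower direction in 23.2%. The exons of PPP1R12A overlap those of PPP1R12A-AS1 on the opposite strand.

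Levels per length differed widely between the members. On the scale of CPM per kilobase of the principal transcript, STK11 was the most abundant, at 32.0 to 34.3 over the 4 libraries. MARK2 followed at 18.7 to 19.9, then PRKAA1 at 16.1 to 18.7 and PPP1R12A at 15.1 to 16.8. The last pair overlapped, whereas STK11, MARK2 and PRKAA1 were separate. NUAK2, SIK3, SIK2 and NUAK1 formed a lower tier and PRKAA2 the lowest, at 0.928 to 1.12 CPM per kilobase.

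Within the lower tier NUAK2 came first in 3 of the 4 libraries. It had 4.07 and 4.97 CPM per kilobase in the nanoparticle libraries and 6.62 and 6.82 CPM per kilobase in the PBS libraries. SIK3 ranged from 4.37 to 4.66, SIK2 from 4.45 to 4.69 and NUAK1 from 3.84 to 4.51 CPM per kilobase over all libraries. NUAK2 was thus above these 3 kinases in both PBS libraries, below all 3 in nanoparticle replicate 1 and above all 3 in nanoparticle replicate 2, so its place did not separate the treatments. The order among the abundant members rested on which transcript is used: per kilobase of the union of exons PRKAA1 (mean 13.4) came before STK11 (10.1), MARK2 (9.19) and PPP1R12A (7.67), and SIK3 fell to 2.59.

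**Figure D2:**
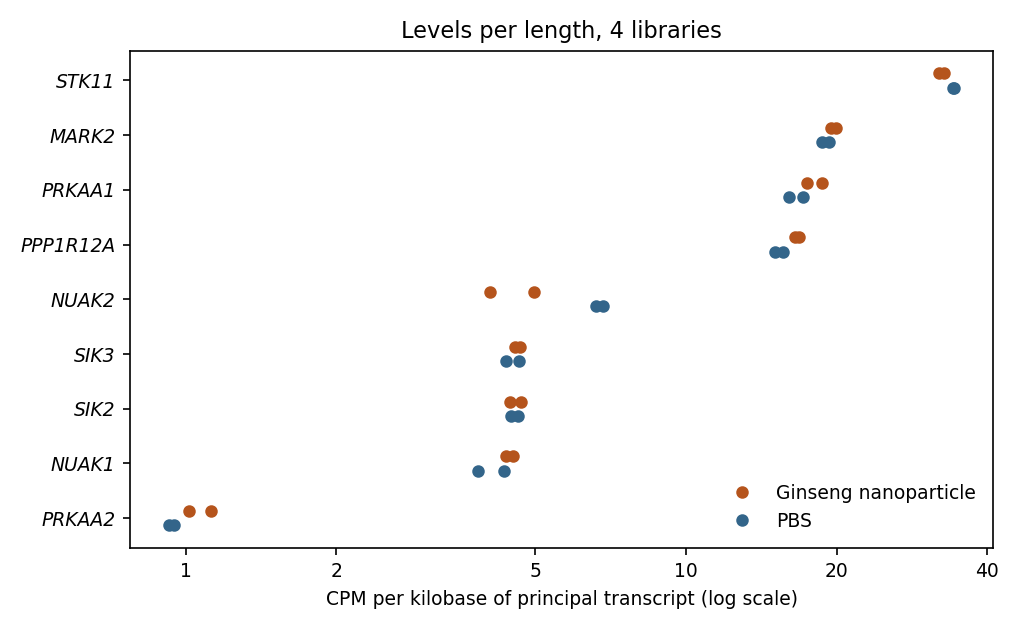
CPM per kilobase of the principal transcript (horizontal, log scale) for the 9 measured members, ordered by mean, with 1 point for each of the 2 Ginseng nanoparticle and 2 PBS libraries. NUAK2 lies at 4.07 and 4.97 with nanoparticles, on either side of SIK3 and SIK2, and at 6.62 and 6.82 with PBS, above them.

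NUAK2 lies on chromosome 1 from 205302059 to 205321791 on the minus strand of GRCh38, with no exon overlap to another gene in GENCODE 29. NUAK1 lies on chromosome 12 from 106063340 to 106140033, also on the minus strand. The 250 bases before the RefSeq start site of NUAK2, chr1:205321746-205321995 on the minus strand of GRCh38.p14, are printed below. Beside them stand the same windows of its paralogue NUAK1, chr12:106138955-106139204, and of CCN2, chr6:131951373-131951622, both on the minus strand. CCN2 is a classical YAP target whose mRNA was also lower here, and it was added after its value was seen. Its call was lost with the length trend removed (edgeR adjusted p = 0.0932). The windows of the other YAP targets described below were not searched, so nothing follows from a match shared by NUAK2 and CCN2. Capitals mark matches to the TEAD motif GGAATG on either strand (CATTCC on the other).
NUAK2 promoter: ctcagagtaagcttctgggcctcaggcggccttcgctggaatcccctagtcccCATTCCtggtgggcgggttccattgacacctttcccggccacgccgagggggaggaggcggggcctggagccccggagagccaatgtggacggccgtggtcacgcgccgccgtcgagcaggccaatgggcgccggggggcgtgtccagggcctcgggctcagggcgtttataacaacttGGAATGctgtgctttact
NUAK1 promoter: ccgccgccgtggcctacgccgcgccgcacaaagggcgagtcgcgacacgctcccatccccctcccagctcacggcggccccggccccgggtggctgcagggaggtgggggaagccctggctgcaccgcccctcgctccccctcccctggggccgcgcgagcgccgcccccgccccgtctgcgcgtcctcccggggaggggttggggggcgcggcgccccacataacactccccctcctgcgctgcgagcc
CCN2 promoter: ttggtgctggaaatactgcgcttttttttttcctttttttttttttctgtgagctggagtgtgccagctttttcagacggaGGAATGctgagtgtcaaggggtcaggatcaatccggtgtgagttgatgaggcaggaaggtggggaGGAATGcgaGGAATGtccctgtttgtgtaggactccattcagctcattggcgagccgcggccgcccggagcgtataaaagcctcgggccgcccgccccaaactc

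The NUAK2 window held 2 matches, beginning 197 and 18 bases before the RefSeq start site. The CCN2 window held 3, and the NUAK1 window held none. For NUAK2 and NUAK1 the RefSeq start sites lie inside the GENCODE gene bounds given above. The whole NUAK1 window falls within those bounds, as does the NUAK2 match at 18 bases. The bases before the GENCODE start of NUAK1 lie outside its window. The contrast between the paralogues therefore holds for the RefSeq windows only. PPP1R12A, whose values were higher with nanoparticles, has 4 windows in the table, of which 2 held 1 match each, and the windows of the other members held none. Of 35116 such windows in the RefSeq table, 11.9% held at least 1 match and 0.94% at least 2. The half-site of the CREB element, TGACG on either strand (CGTCA on the other), occurs in 21.2% of these windows. It was found 3 times in the window of SIK1, in 2 places each in those of SIK2, SIK3 and STK11, and not in those of NUAK2, NUAK1, PRKAA1, PRKAA2 and MARK2. Of the 4 PPP1R12A windows 2 held it, but these overlap and share the same single site. Letters alone do not show binding.

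The wider pathway was described with 9 lists of 123 genes, members left out, of which 117 could be tested. Since these lists were chosen with earlier results of these data known, the calls and p-values of their genes are a description. In edgeR's test 6 of the 117 passed, 4 higher and 2 lower, and the median log2 fold change was 0.013. Over all 15778 tested genes 1.75% passed as higher, 0.83% as lower, and the median was 0.00056. With the length trend removed 3 of the 117 genes passed.

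None of the 7 other AMPK-family kinases that could be tested passed. All 7 had log2 fold changes above 0, from 0.028 to 0.10, with a median of 0.080; 50.2% of all tested genes had one above 0. MARK3, the most abundant of them, had 207 and 208 CPM in the nanoparticle libraries and 208 and 200 CPM in the PBS libraries (log2 fold change 0.028, SE 0.033). MELK, a relative that LKB1 does not activate, had a log2 fold change of 0.054 (SE 0.034). HUNK, at 3 to 5 counts, was too low to be tested.

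None of the 7 genes of the LKB1 complex and other AMPK kinases passed (median log2 fold change -0.00045). CAB39, which encodes the scaffold MO25, had a log2 fold change of 0.073 (SE 0.038), and MAP3K7, which encodes the kinase TAK1, had -0.00045 (SE 0.036). CAMKK1 and CAMKK2, the calcium-dependent kinases upstream of AMPK, had -0.31 (SE 0.11, edgeR adjusted p = 0.129) and -0.12 (SE 0.044, edgeR adjusted p = 0.159), and were named after their values were seen. Their nanoparticle values were 7.15 and 7.19 CPM for CAMKK1 and 67.2 and 71.4 CPM for CAMKK2, against PBS values of 8.67 and 9.12 CPM for CAMKK1 and 74.8 and 75.7 CPM for CAMKK2. STRADA, the pseudokinase partner of LKB1, had 0.34 (SE 0.24, edgeR adjusted p = 0.521) at 25 to 43 counts per library. The groups did not overlap for these 3 genes, lower for the CAMKK genes and higher for STRADA, against 46.9% of all tested genes in either direction.

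None of the 6 tested AMPK regulatory and folliculin-complex genes passed (median 0.046), nor did any of 16 AMPK substrate genes (median 0.029) or 7 SIK substrate genes (median -0.016). PRKAG2, a nucleotide-binding gamma subunit, had a log2 fold change of -0.028 (SE 0.041), and PRKAB1, a beta subunit that docks glycogen, 0.065 (SE 0.046). SREBF1, the lipogenic factor that AMPK restrains, had -0.085 (SE 0.035), and TBC1D1, a Rab GTPase-activating protein of glucose transport, had -0.0014 (SE 0.033). The CREB coactivator gene CRTC2 had 0.050 (SE 0.045) and the class IIa deacetylase gene HDAC7 had -0.049 (SE 0.034).

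Among 12 genes of CREB and its targets 2 passed, in opposite directions, against 2.58% of all tested genes in either direction. CREM, whose short product ICER represses cAMP-driven transcription, rose to 44.3 and 41.0 CPM in the nanoparticle libraries, against 32.8 and 35.9 CPM in the PBS libraries (log2 fold change 0.31, SE 0.059, edgeR adjusted p = 0.00624). DUSP1, a phosphatase that switches off MAP kinases, fell to 40.8 and 37.2 CPM in the nanoparticle libraries, against 53.1 and 49.5 CPM in the PBS libraries (log2 fold change -0.39, SE 0.056, edgeR adjusted p = 0.000485). Both also passed with the length trend removed. With no low-count filter neither passed. CREM did not pass by DESeq2's Wald test (adjusted p = 0.0778), without nanoparticle replicate 1 (edgeR adjusted p = 0.088) or without either PBS replicate, and DUSP1 did not pass without either PBS replicate. The list median was 0.060, and 7 of the 12 log2 fold changes were above 0.

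The polarity gene PARD6B was the 1 of 18 MARK substrates, polarity genes and 14-3-3 genes that passed, against 2.58% of all tested genes. It rose to 5.20 and 5.18 CPM in the nanoparticle libraries, against 3.77 and 3.26 CPM in the PBS libraries (log2 fold change 0.56, SE 0.14, edgeR adjusted p = 0.039). Leaving out any 1 of the 4 libraries lost this call, as did DESeq2, no low-count filter and removing the length trend (edgeR adjusted p = 0.0686). YWHAZ, the most abundant 14-3-3 gene, had a log2 fold change of -0.0025 (SE 0.020), and the list median was -0.025.

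No gene of the 24 tested for myosin phosphatase and myosin II passed (median -0.012, range -0.12 to 0.11). MYH9, the heavy chain of non-muscle myosin IIA, had 1276 and 1291 CPM in the nanoparticle libraries and 1274 and 1297 CPM in the PBS libraries (log2 fold change -0.0022, SE 0.021). PPP1R14B, named after its value was seen, came closest to the threshold (log2 fold change -0.12, SE 0.033, edgeR adjusted p = 0.0527). Its value was -0.060 with the length trend removed, and 11 of the 24 genes had values above 0. The genes of this list thus showed no called change at the level of mRNA in the fit as reported, and phosphorylation was not measured here.

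Of 20 Hippo pathway genes 3 passed, 2 regulators higher and 1 target lower, against 2.58% of all tested genes in either direction. With the length trend removed 1 of the 20 passed, against 1.32% of all tested genes. TEAD1, a DNA-binding partner of YAP, rose to 94.8 and 98.2 CPM in the nanoparticle libraries, against 83.6 and 87.6 CPM in the PBS libraries (log2 fold change 0.17, SE 0.040, edgeR adjusted p = 0.0236). YAP1 rose to 149.9 and 153 CPM in the nanoparticle libraries, against 135 and 141 CPM in the PBS libraries (log2 fold change 0.13, SE 0.036, edgeR adjusted p = 0.0485). CCN2, a secreted matricellular protein, fell to 173 and 179 CPM in the nanoparticle libraries, against 189 and 202 CPM in the PBS libraries (log2 fold change -0.15, SE 0.037, edgeR adjusted p = 0.0296).

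The list holds 6 other YAP targets, named after their values were seen, and none passed. The log2 fold change was -0.11 for CCN1 (SE 0.034), -0.14 for ANKRD1 (SE 0.063) and -0.099 for AMOTL2 (SE 0.034), each with all nanoparticle libraries below all PBS libraries, as in 23.2% of all tested genes. AMOTL1 had 0.070 (SE 0.043), with all nanoparticle libraries above all PBS libraries, and the groups overlapped for AJUBA (-0.0012, SE 0.051) and F3 (-0.097, SE 0.15). The median over the 20 genes was 0.0066. Leaving out any 1 library, DESeq2 and no low-count filter each lost the calls of TEAD1, YAP1 and CCN2, and RLE scaling (edgeR adjusted p = 0.0541) and upper-quartile scaling (0.0762) lost that of YAP1. With the length trend removed TEAD1 passed, and YAP1 (edgeR adjusted p = 0.197) and CCN2 (0.0932) did not.

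**Figure D3:**
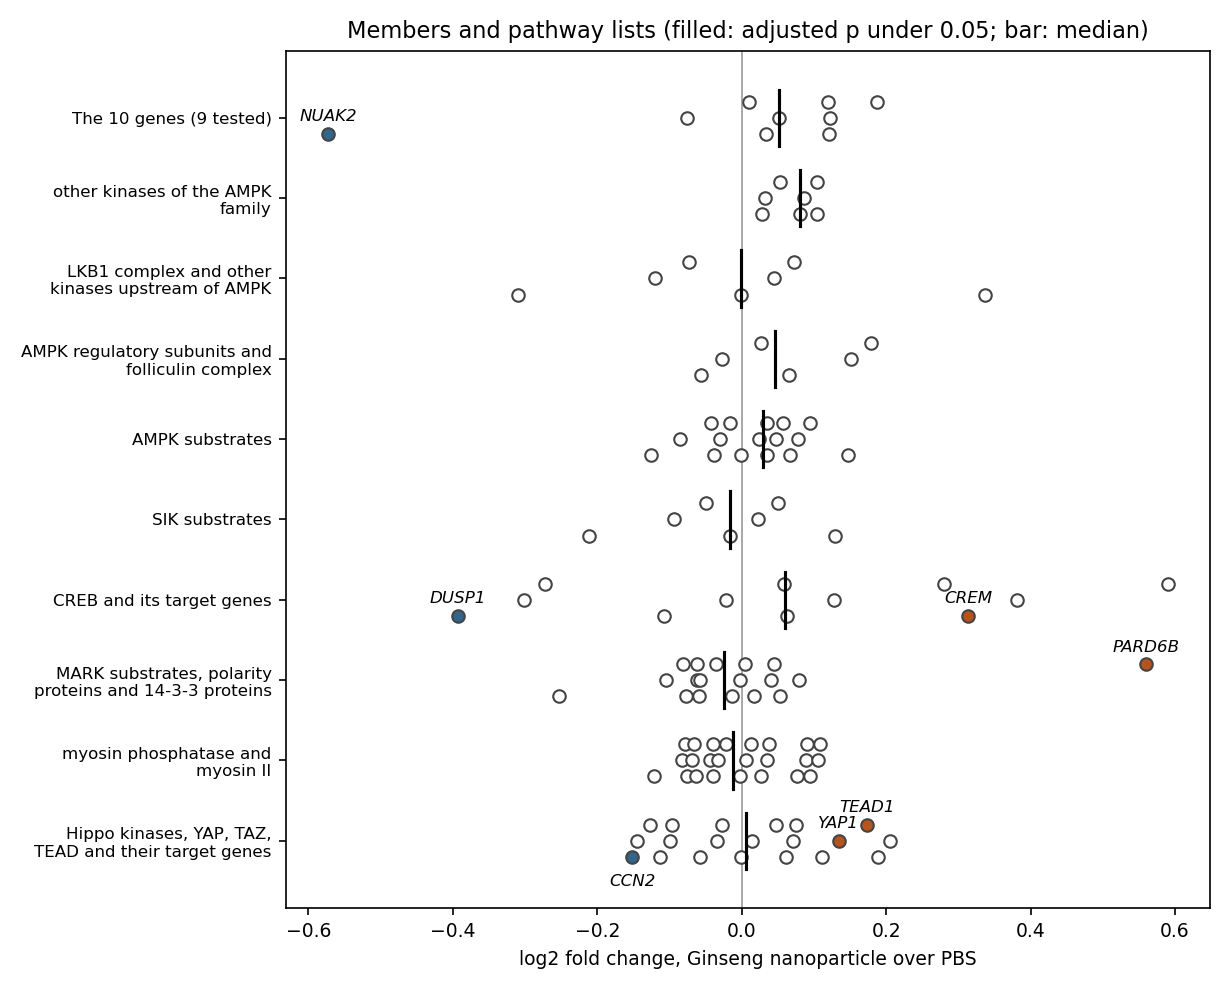
Log2 fold change of Ginseng nanoparticle over PBS (horizontal) for each tested gene of the member set and the 9 pathway lists (rows), with filled points for an edgeR adjusted p under 0.05 and a bar for the median. NUAK2 stands at -0.57, DUSP1 at -0.39 and CCN2 at -0.15 among the filled points on the left, and PARD6B at 0.56, CREM at 0.31, TEAD1 at 0.17 and YAP1 at 0.13 on the right.

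The 5 genes whose pattern over the 4 libraries was most like that of NUAK2 were CNPY2, KREMEN2, MT1X, PDGFB and LIF, out of 11103 other genes with a mean of at least 5 CPM. Likeness was the Euclidean distance between profiles of log2 CPM, each taken from the gene's own mean, and it ran from 0.183 for CNPY2 to 0.273 for LIF. LIF, a cytokine of the interleukin 6 family, had 38.9 and 44.8 CPM in the nanoparticle libraries and 50.7 and 53.0 CPM in the PBS libraries, with the same order of libraries as NUAK2. KREMEN2, a receptor that dampens WNT signalling, had 6.75 and 8.31 CPM in the nanoparticle libraries and 9.57 and 9.79 CPM in the PBS libraries. MT1X, a metallothionein, differed from NUAK2 in that its nanoparticle libraries were close, at 4.96 and 4.86 CPM, with 7.05 and 7.06 CPM in the PBS libraries. The log2 fold change of the 5 genes ran from -0.52 for MT1X to -0.31 for LIF, smaller in size than that of NUAK2. These genes were picked for their likeness, so their fold changes are a description.

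Across the alternative settings the value of NUAK2 moved little except with the nanoparticle library used. It was -0.57 with RLE scaling, -0.59 with upper-quartile scaling, -0.58 with the length trend removed and -0.57 with length and GC trends removed. The nanoparticle libraries bounded it, at -0.43 without replicate 1 and -0.72 without replicate 2.

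**Figure D4:**
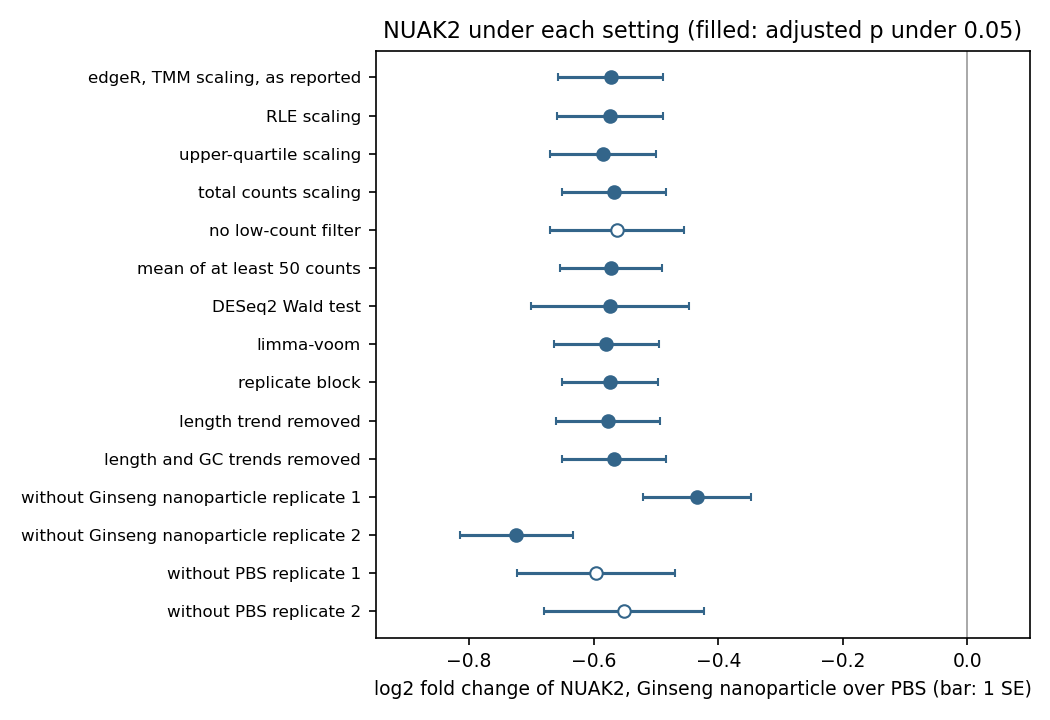
Log2 fold change of NUAK2, Ginseng nanoparticle over PBS (horizontal, bar for 1 standard error), as reported and under 14 alternatives (rows), filled where the adjusted p was under 0.05. NUAK2 was chosen for its decrease in these libraries, so the fill is a description and no test. Every value lies between -0.72 and -0.43, and the open points are those with no low-count filter and without either PBS replicate.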

How the data were processed

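Per the labels' protocols, libraries of H1299 polyadenylated RNA used a TruSeq stranded kit and 300 ng of input RNA, in 2 Ginseng nanoparticle and 2 PBS libraries. The deposited files hold raw read counts per Ensembl gene. The submitters' processing notes name bcl2fastq 2.20, cutadapt 3.5, STAR 2.7.6a, Picard, HTSeq 2.0.2 and GRCh38. Neither annotation release nor strand use is given in the sources used here. Reads given to no gene (13.7% to 14.8% per library) were left out.

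Symbols came from a gene name table (42045 rows) and from GENCODE 29 (16429 rows), which also gave lengths, GC content and positions and may differ from the release used for counting. Lengths covered 98.2% of the genes tested. After filterByExpr and TMM scaling, edgeR 4.0.16 in R 4.3.3 tested nanoparticle against PBS over all genes by quasi-likelihood, two-sided, with Benjamini-Hochberg adjustment at 0.05. Standard errors follow from the coefficient and its F statistic, and CPM use TMM factors between 0.996 and 1.00. Chi-square per degree of freedom between replicates was 2.05 for nanoparticle and 1.86 for PBS, so no library was treated as a copy. The common biological coefficient of variation in edgeR was 2.46%. Neither value shows whether the replicates were separate cultures. Alternatives were other scalings and filters, DESeq2 1.42.0, limma-voom 3.58.1, a replicate block, the removal of length and GC trends (robust spline with 4 degrees of freedom, MASS 7.3.60.0.1) and leaving out each library. The fits were also run on simulated data with known changes and the same spread between replicates set for every gene. That outcome is not given here, and nothing is drawn from it. Intervals and limits from counts cover counting error only.

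The members, lists and tests were chosen with earlier results of these data known. By rule, named genes were all members, up to 4 called genes per list or the most abundant until 2 were named, and the 5 nearest profiles to NUAK2. Named after their values were seen were CAMKK1, CAMKK2, STRADA, STRADB, PPP1R14B, the other YAP targets, and HUNK, TXNIP, PRKAG1 and PRKAG3 for their low counts. An item that the rule covers is not reported here. Promoter windows are from RefSeq (GRCh38.p14), where all 10 members matched, and coding stretches are from GENCODE 29 transcripts. Figures were drawn with matplotlib 3.10.9.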

Additional observations from a re-analysis of the deposited data

How the results depend on the processing

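With no low-count filter NUAK2 had a log2 fold change of -0.56 and was not past the threshold, and 0 members, 0 pathway genes and 0 genes in all passed in edgeR, with 2 members, 25 pathway genes and 2297 genes at an unadjusted p under 0.05. Leaving out 1 library gave -0.72 to -0.43 for NUAK2, 0 to 1 members, 0 to 4 pathway genes and 0 to 200 genes in all. Against 407 genes and 6 pathway genes as reported, DESeq2 called 90 and 1, the length removal 208 and 3, and the length and GC removal 257 and 3. A mean of at least 50 counts, which tested fewer genes and adjusted over those alone, gave 602 genes and 13 pathway genes. Upper-quartile scaling split the calls into 223 higher and 190 lower, against 276 and 131. The causes were not tested.

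The replicate number as a block gave -0.57 for NUAK2, 759 genes and 17 pathway genes. The differences between replicates correlated at 0.035 between the groups over genes above 5 CPM, so libraries of the same number shared little variation. This correlation cannot show whether the replicates were paired. The labels state no pairing, so the block is given as an alternative only.

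Genes near 0 changed sign. With total counts scaling and with no low-count filter the log2 fold change was 0.0041 and 0.0091 for MAP3K7, 0.0032 and 0.0082 for TBC1D1, 0.0022 and 0.0071 for YWHAZ, and 0.0024 and 0.0073 for MYH9. Leaving out 1 library gave -0.026 to 0.026 for MAP3K7, -0.062 to 0.0058 for PRKAG2, -0.018 to 0.013 for TBC1D1, -0.022 to 0.12 for CRTC2, -0.021 to 0.014 for YWHAZ and -0.017 to 0.010 for MYH9. Low counts limit PARD6B, at 73 to 130 counts per library.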

Other observations

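Some genes of the energy-sensing network had almost no counts. TXNIP, an AMPK substrate that restrains glucose uptake, was listed at 0 counts in all 4 libraries, as was the gamma subunit gene PRKAG3. PRKAG1, another gamma subunit of AMPK, had 12 and 7 counts in the nanoparticle libraries and 3 and 8 counts in the PBS libraries, whereas PRKAG2 had 2027 and 2115 counts with nanoparticles and 1889 and 1887 counts with PBS. STRADA, the pseudokinase partner of LKB1, had 43 and 39 counts in the nanoparticle libraries and 33 and 25 counts in the PBS libraries, and its relative STRADB had 897 and 873 counts with nanoparticles and 836 and 829 counts with PBS. Reads that were ambiguous or not uniquely aligned were given to no gene, and their part in the low counts was not tested.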
